A study of Mus musculus with 21 samples.

Results

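The 10 genes followed in mouse hearts encode DNA topoisomerases, doxorubicin's main cardiac target topoisomerase II beta among them, and pumps that export the drug. The others encode enzymes that reduce the drug and a receptor linked to cardiac sensitivity. They were *Top2b*, *Top1* and *Top1mt* (DNA topoisomerases), *Abcb1a*, *Abcb1b*, *Abcc1* and *Abcg2* (efflux pumps), *Cbr1* and *Cbr3* (carbonyl reductases) and *Rarg* (a retinoic acid receptor). These 10 of the 56691 genes in the table were chosen by name, and all 10 passed the filter on low values (at least 0.5 FPKM on average over all libraries, where FPKM is the read count scaled by gene length and library total). The study sequenced RNA from 21 hearts: 5 Control, 5 DOX, 6 Tb and 5 Tb-DOX. Control mice received normal saline, DOX mice received doxorubicin at 5 mg/kg once a week for 3 weeks by intraperitoneal injection, Tb mice carried a subcutaneous tumor grown from 4T1 cells (a mouse mammary carcinoma line) and received saline, and Tb-DOX mice carried the tumor and received the drug. Strain, sex and age are not given in the sources used here, and the labels name no engineered allele. Every tumor came from the same line. The labels give 4T-1 as the source in every case, but the study describes heart tissue. All 8 cardiomyocyte markers were detected, with a summed level of 47579 to 85710 counts scaled to library size (CPM) per library, while 6 epithelial markers of mammary cells summed to 0.225 to 1.43 CPM in Control, 0.464 to 2.09 in DOX, 0.849 to 4.39 in Tb and 1.39 to 2.29 in Tb-DOX. Of these 6, *Krt5* was at 0 in DOX, Tb and Tb-DOX, and the only one tested, *Krt18*, was not called in Tb against Control (1.40, adjusted p = 0.155).

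Doxorubicin is an anthracycline that traps type II topoisomerases on DNA after they have cut both strands. Heart muscle cells do not divide and hold mostly the beta form, encoded by *Top2b*, whose loss protects the mouse heart from the drug. P-glycoprotein, encoded in mice by the neighbouring genes *Abcb1a* and *Abcb1b*, exports doxorubicin across the plasma membrane, as do the proteins encoded by *Abcc1* (MRP1) and *Abcg2* (BCRP). Carbonyl reductases turn the drug into doxorubicinol, an alcohol that accumulates in the heart, and variants of *RARG* and *CBR3* have been studied as markers of anthracycline cardiotoxicity in patients.

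DOX replicate 4 and Tb replicate 5 stood apart in *Cd3e*, 1 of 9 T cell markers. It was at 309 CPM in DOX replicate 4, against 4.44 to 14.1 in the other DOX libraries, and at 42.5 CPM in Tb replicate 5, against 0.86 to 1.72 in the other Tb libraries. The other 8 T cell markers together made up 1.85 CPM in DOX replicate 4, against 0.795 to 1.21 in the other DOX libraries and 1.09 to 2.02 in Control, and 4.76 CPM in Tb replicate 5, against 2.55 to 4.43 in the other Tb libraries. Tb replicates 5 and 6 were also the highest Tb libraries in summed neutrophil markers, at 5587 and 4894 CPM, against 604 to 2242 in the others. In summed endothelial markers they were at 2248 and 2007 CPM, against 1626 to 1869. The 6 epithelial markers were at 4.16 and 4.39 CPM, against 0.849 to 1.16. Values without DOX replicate 4 and Tb replicate 5 follow the results.

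In DOX hearts *Top2b* and the pump genes *Abcb1b*, *Abcc1* and *Abcg2* rose against Control, *Top1* fell, and the other 5 genes were not called. In tumor-bearing hearts 0 of the 10 were called, where only 4.72% of all tested genes were. The test was edgeR's quasi-likelihood F test in 1 fit over all 21 libraries, with TMM scaling (a correction of library size for differences in composition), and a gene was called at an adjusted p under 0.05 (Benjamini-Hochberg over 13990 genes). Against Control, 4 of 10 genes rose and 1 fell, where 36.2% of all tested genes were called (18.0% higher and 18.2% lower). When a log2 fold change of 1 or more in either direction was also required, 0 of 10 were called, against 9.95% of all genes. The median log2 fold change was −0.04 over the 10 genes and 0.0024 over all tested genes. Scaled by library totals in place of TMM, 1423 genes rose (10.2%) and 3526 fell (25.2%) over the whole table, against 2523 and 2548. The labels number the libraries of a group without naming animals, so p-values measure the spread between these libraries.

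**Figure D1:**
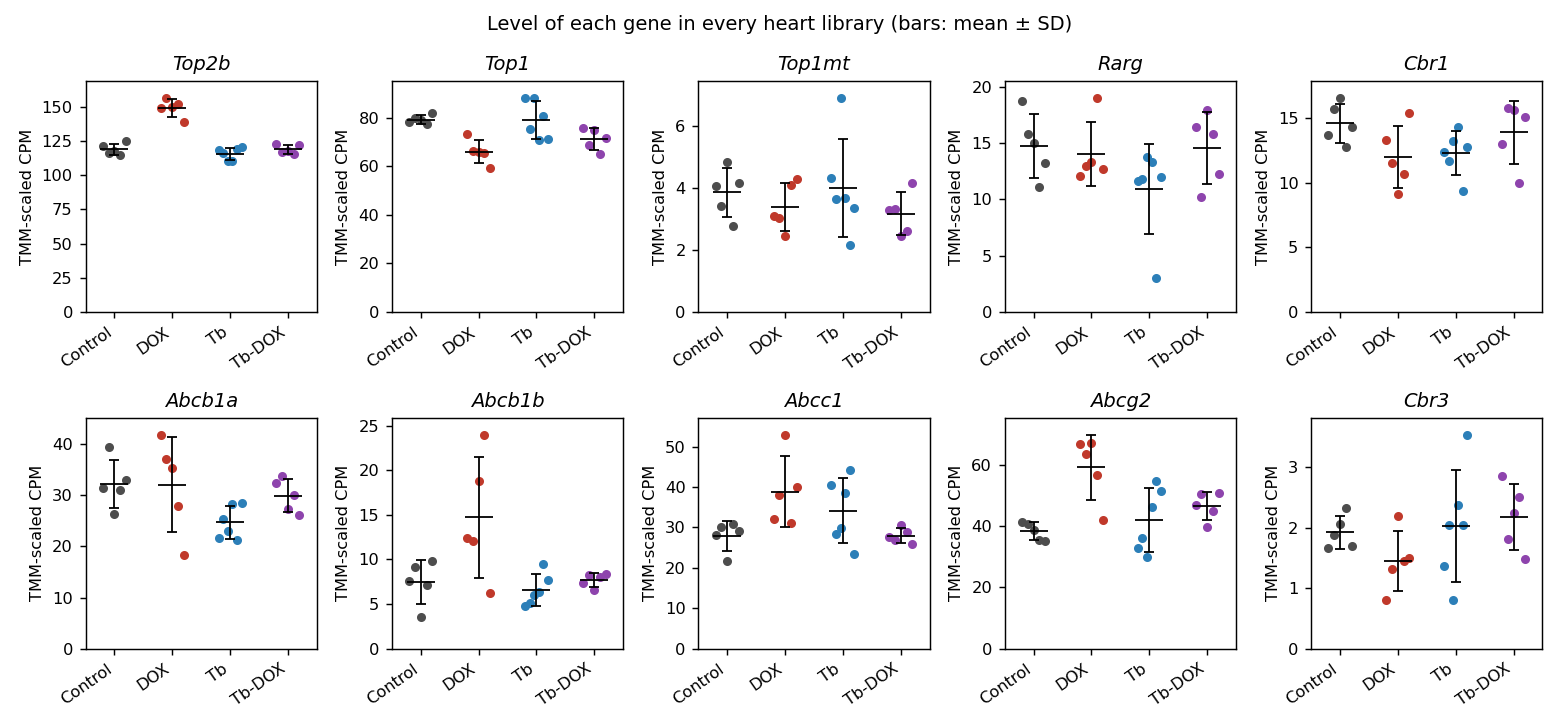
Level of each of the 10 genes in every library, in TMM-scaled CPM from 0 (vertical axis), by group (horizontal axis: Control, DOX, Tb and Tb-DOX). Points are libraries and black bars give the mean ± SD; for Top2b the DOX libraries lie at 138.7 to 156.5 CPM, above all libraries of the other groups.

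**Figure D2:**
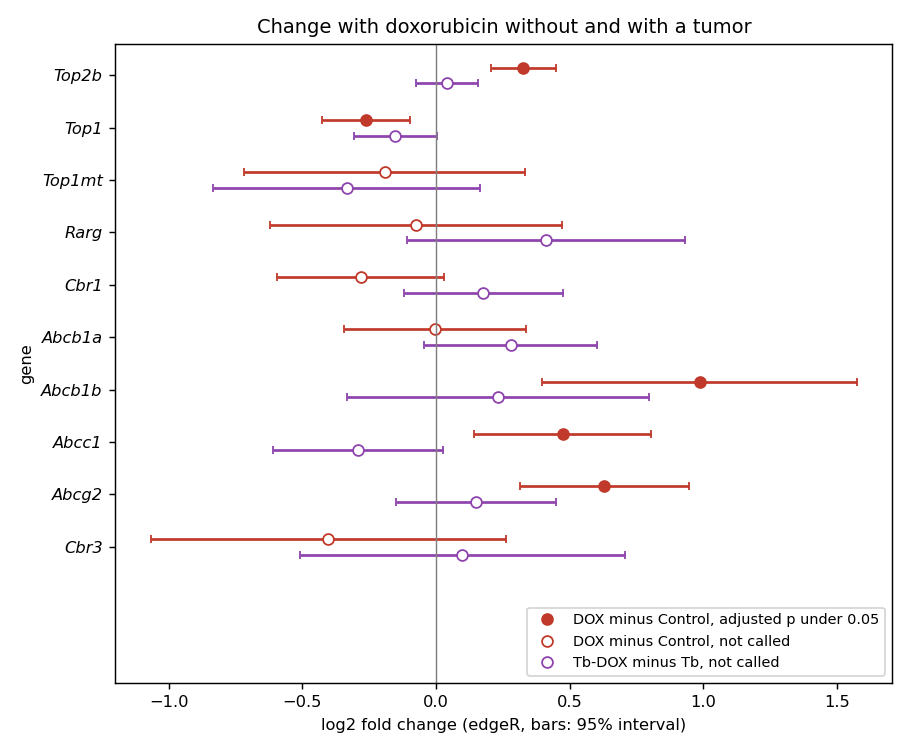
Log2 fold change (horizontal axis) of each gene (vertical axis) with doxorubicin in mice without a tumor (red) and with one (purple). Bars are 95% intervals, and filled points mark an adjusted p under 0.05; the 5 filled points all belong to DOX minus Control.

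Per gene length, *Top2b* and *Top1* were the most abundant of the 10 in Control hearts and *Abcb1b* the least. The mean FPKM (± SD, n = 5) was 8.21 ± 0.496 for *Top2b*, 7.65 ± 0.425 for *Top1*, 5.91 ± 0.722 for *Abcb1a*, 5.77 ± 0.848 for *Cbr1* and 4.73 ± 0.421 for *Abcg2*. It was 3.5 ± 0.683 for *Rarg*, 1.91 ± 0.476 for *Top1mt*, 1.86 ± 0.176 for *Abcc1*, 1.55 ± 0.237 for *Cbr3* and 0.928 ± 0.291 for *Abcb1b*. In this order the library ranges of neighbours overlapped except between *Top1* and *Abcb1a* and between *Cbr3* and *Abcb1b*. In DOX hearts *Abcg2* stood second, at 6.66 ± 1.39 FPKM, with a range that overlapped that of *Top1* at 5.8 ± 0.544. *Top2b* stood first in all 4 groups, with a mean above 74.2% of all tested genes over the 21 libraries.

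*Top2b* and *Top1* moved in opposite directions. *Top2b* (ENSMUSG00000017485) encodes topoisomerase II beta, which passes 1 DNA duplex through another and is the main target of doxorubicin in the heart. It lies on chromosome 14 at 6034301 to 6104584, minus strand, as the deposited table gives it (the submitters' processing notes name GRCm39), and on the plus strand in GRCm38. *Top1* (ENSMUSG00000070544; chromosome 2, 160487808 to 160564684, plus strand) encodes topoisomerase I, which cuts 1 strand and is the target of camptothecin. Their promoters are shown because the pair changed in opposite directions in the same hearts. Both come from RefSeq on GRCm38.p6, from 250 bases before to 50 bases after the start of the gene, 5′ to 3′ on the gene's strand in that build, which is plus for both, at chr14:16364956-16365255 for *Top2b* and at chr2:160645647-160645946 for *Top1*. Capitals mark 3 motifs searched on both strands: the GC box GGGCGG, the CCAAT box CCAAT and the core of the antioxidant response element TGACNNNGC. No other motif was searched, and no match overlapped another.
Top2b: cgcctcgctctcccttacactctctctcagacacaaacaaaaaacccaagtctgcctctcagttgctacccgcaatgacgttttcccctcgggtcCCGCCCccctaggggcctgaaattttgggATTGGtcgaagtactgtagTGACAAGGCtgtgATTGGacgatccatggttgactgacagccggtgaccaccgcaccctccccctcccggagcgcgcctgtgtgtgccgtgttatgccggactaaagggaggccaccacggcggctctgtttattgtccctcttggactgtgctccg
Top1: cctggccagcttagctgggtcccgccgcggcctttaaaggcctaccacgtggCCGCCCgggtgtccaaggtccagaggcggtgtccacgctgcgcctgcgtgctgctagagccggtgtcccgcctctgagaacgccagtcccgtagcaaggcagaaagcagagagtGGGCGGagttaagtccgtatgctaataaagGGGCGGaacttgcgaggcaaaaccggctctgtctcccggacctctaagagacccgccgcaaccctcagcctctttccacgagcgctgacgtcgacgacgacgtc
The *Top2b* window held 1 GC box, 2 CCAAT boxes and 1 antioxidant response element core, and the *Top1* window held 3 GC boxes. Of all 32851 promoter windows in the table, 35.7% held a GC box, 37.4% a CCAAT box and 12.4% an antioxidant response element core. Such matches are a description of the letters and not of binding.

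*Top2b* was measured at 121, 116, 118, 115 and 125 CPM in the Control libraries and at 149, 156, 150.1, 152 and 139 CPM in the DOX libraries. Every DOX library lay above every Control library. The fold change was 1.25, or 0.33 (SE 0.0591, adjusted p = 0.000277) on the log2 scale. *Top1* was measured at 78.1, 79.7, 78.8, 77.5 and 81.8 CPM in Control and at 73.2, 66.2, 66.02, 65.5 and 59.3 CPM in DOX, again with no overlap, and fell by 0.26 on the log2 scale (SE 0.0786, adjusted p = 0.0126). Groups did not overlap in this comparison for 4 of the 10 genes (*Top2b*, *Top1*, *Abcc1* and *Abcg2*), against 25.3% of all tested genes.

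The size of the *Top2b* change depended on the scaling. TMM and library totals differed by 0.14 on the log2 scale for the median gene of this comparison, which lay at −0.14 under library totals. Scaled by library totals, as the deposited FPKM is, *Top2b* differed by 0.19 (adjusted p = 0.0568) and *Top1* kept its call (with no filter on low values *Top1* was not called, at −0.25, adjusted p = 0.0926). In FPKM the *Top2b* groups overlapped, at 7.66 to 8.82 in Control and 8.56 to 10.36 in DOX (exact permutation test, two-sided, p = 0.0238), and only *Top1* of the 10 genes did not overlap, at 7.23 to 8.26 against 5.13 to 6.39 (exact p = 0.00794, the smallest p that 252 arrangements can give). The share of all tested genes without overlap in FPKM was 25.2%.

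The ratio of *Top2b* to *Top1* within a library does not depend on the scaling. It was 1.11, 1.04, 1.07, 1.06 and 1.09 in Control and 1.45, 1.69, 1.62, 1.66 and 1.67 in DOX. All 5 DOX hearts lay above all Control hearts. The difference in the log2 ratio was 0.58 (SE 0.0414), a 1.5-fold higher ratio (exact p = 0.00794, the smallest possible; adjusted p = 0.0794 over the 20 ratio comparisons made). The adjusted value misses 0.05, as it does for all 20.

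The third topoisomerase, *Top1mt* (ENSMUSG00000000934; chromosome 15, 75528884 to 75550649, minus strand), works on mitochondrial DNA. Its counts were low, 34 to 112 per library. It ranged from 2.78 to 4.84 CPM (median 4.04) in Control and from 2.45 to 4.28 CPM (median 3.1) in DOX, with wide overlap. The difference was −0.19 (95% interval −0.72 to 0.33, adjusted p = 0.579).

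*Top2b* overlaps *Rarb* on the opposite strand in the table, and whether the libraries or the counting kept the strand is not given in the sources used here. *Rarb* had a mean FPKM of 1.18. *Top1* and *Top1mt* overlap genes with a mean FPKM of at most 0.166.

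**Figure D3:**
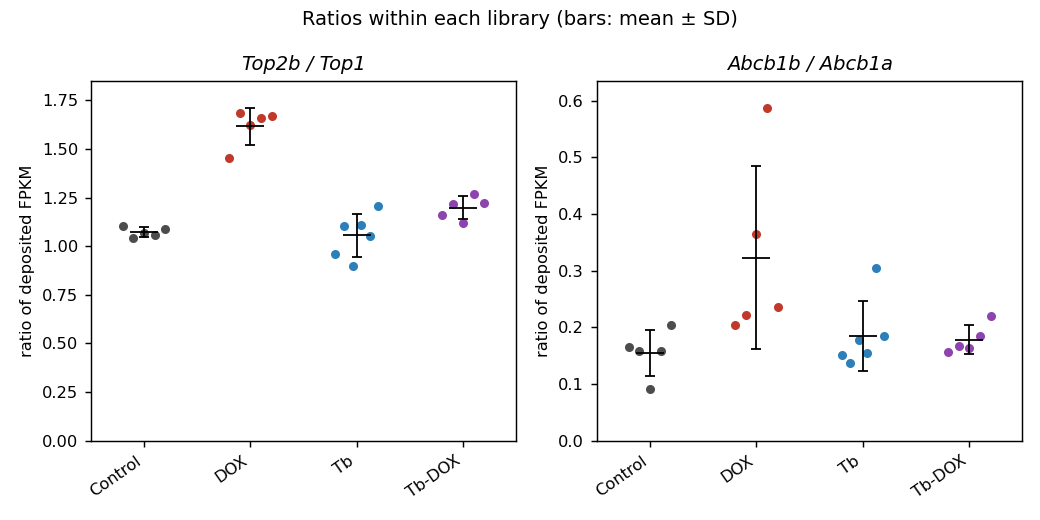
Ratio of deposited FPKM values within each library (vertical axes, from 0) for Top2b over Top1 (left) and Abcb1b over Abcb1a (right), by group. Points are libraries and bars give the mean ± SD; the Top2b over Top1 ratio lies at 1.04 to 1.11 in Control and at 1.45 to 1.69 in DOX.

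Of the pumps, *Abcb1b*, *Abcc1* and *Abcg2* rose in DOX hearts and *Abcb1a* was not called. *Abcb1a* (ENSMUSG00000040584; chromosome 5, 8710077 to 8798575) and *Abcb1b* (ENSMUSG00000028970; chromosome 5, 8848147 to 8916315) lie on the plus strand, 49.6 kb apart. In humans 1 gene, *ABCB1*, does the work of both. The promoter of *Abcb1b* is shown because its fold change was the largest of the 10 genes. It comes from the same build and was cut in the same way as above, at chr5:8797897-8798196.
Abcb1b: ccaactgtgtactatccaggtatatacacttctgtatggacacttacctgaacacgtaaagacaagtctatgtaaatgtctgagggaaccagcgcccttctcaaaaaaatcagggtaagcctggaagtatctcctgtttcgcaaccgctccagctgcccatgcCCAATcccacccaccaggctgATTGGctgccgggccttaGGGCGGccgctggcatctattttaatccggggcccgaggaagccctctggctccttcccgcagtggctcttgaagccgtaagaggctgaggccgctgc
This window held 2 CCAAT boxes and 1 GC box and no antioxidant response element core. The window listed for *Abcb1a* belongs to a start 93 kb from that of the gene in GENCODE M21 on the same build, and it is not printed. Windows were found for 8 of the 10 genes, and there was no entry for *Top1mt* and *Abcc1*.

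*Abcb1b* was measured at 7.58, 9.12, 3.53, 7.13 and 9.83 CPM in Control and at 12.5, 12.1, 18.8, 23.99 and 6.25 CPM in DOX. DOX replicates 3 and 4 were the highest, and DOX replicate 5 lay within the Control range. The fold change was 1.98, or 0.99 (SE 0.284, adjusted p = 0.00989) on the log2 scale, the largest among the 10 genes, and 13.1% of all tested genes had a larger one. *Abcb1a* was measured at 31.4, 39.5, 26.3, 31.1 and 32.95 CPM in Control and at 41.9, 37.2, 35.4, 27.9 and 18.3 CPM in DOX. Its DOX values spread to both sides of the Control range, from 18.3 in replicate 5 to 41.9 in replicate 1, and the difference was −0.0038 (95% interval −0.34 to 0.34, adjusted p = 0.988).

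The ratio of *Abcb1b* to *Abcb1a* was 0.166, 0.158, 0.0914, 0.158 and 0.205 in Control and 0.204, 0.221, 0.365, 0.588 and 0.236 in DOX. Only the lowest DOX value reached the Control range. The log2 ratio differed by 0.91 (SE 0.318; exact p = 0.0159, adjusted p = 0.104 over 20). Reads may be shared between the pair: of all windows of 50 bases in the GENCODE M21 transcripts of *Abcb1b*, 11.1% also occur in those of *Abcb1a*, and of windows of 150 bases 3.63% do, and how such reads were assigned was not tested.

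*Abcg2* (ENSMUSG00000029802; chromosome 6, 58561508 to 58672661, plus strand) encodes BCRP, which in the heart is known from the endothelium of small vessels. It was measured at 41.4, 40.7, 38.7, 35.4 and 35.1 CPM in Control and at 66.8, 63.4, 67.2, 56.6 and 41.9 CPM in DOX. The groups did not overlap, although DOX replicate 5 lay just above the highest Control library. The fold change was 1.55, or 0.63 (SE 0.152, adjusted p = 0.00296) on the log2 scale.

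*Abcc1* (ENSMUSG00000023088; chromosome 16, 14179422 to 14293601, plus strand) encodes MRP1, which exports drugs and their glutathione conjugates. It was measured at 28.1, 30.2, 21.7, 30.9 and 29.1 CPM in Control and at 32.05, 38.1, 52.96, 31.1 and 39.98 CPM in DOX. The groups did not overlap, by a margin of 30.94 against 31.13 CPM, and DOX replicate 3 was the highest. The difference was 0.47 (SE 0.16, adjusted p = 0.025). It lost its call without Control replicate 3 (0.40, adjusted p = 0.0667), without DOX replicate 3 (0.34, adjusted p = 0.0953) and under library totals (0.36, adjusted p = 0.0864). On the deposited FPKM, which is scaled by library totals, the exact permutation test gave p = 0.111 for both *Abcb1b* and *Abcc1* and p = 0.0317 for *Abcg2*.

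The reductases were lower on average in DOX hearts, and neither was called. *Cbr1* (ENSMUSG00000051483; chromosome 16, 93402741 to 93407393) and *Cbr3* (ENSMUSG00000022947; chromosome 16, 93480103 to 93487878) lie on the plus strand, 72.7 kb apart, and share 1 of the 1254 windows of 50 bases in *Cbr3*. *Cbr1*, which reduces the side-chain ketone of doxorubicin, was measured at 13.7, 15.7, 16.5, 12.8 and 14.3 CPM in Control and at 13.3, 11.5, 9.15, 10.7 and 15.4 CPM in DOX. DOX replicates 2, 3 and 4 lay under the Control range and the other two lay within it. The difference was −0.28 (95% interval −0.59 to 0.031, adjusted p = 0.149), and under library totals it was −0.43 (adjusted p = 0.0387). *Cbr3* was counted at only 12 to 62 reads per library. It ranged from 1.67 to 2.33 CPM (median 1.88) in Control and from 0.808 to 2.19 CPM (median 1.44) in DOX, a difference of −0.40 (95% interval −1.07 to 0.26, adjusted p = 0.34). The ratio of *Cbr3* to *Cbr1* did not differ beyond its spread (log2 difference −0.13, SE 0.320; exact p = 0.762).

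*Rarg* (ENSMUSG00000001288; chromosome 15, 102143373 to 102165952, minus strand) encodes retinoic acid receptor gamma, a nuclear receptor that was found to repress the *Top2b* promoter. It was measured at 18.8, 15.8, 14.99, 11.1 and 13.2 CPM in Control and at 12.1, 12.97, 13.3, 19.01 and 12.8 CPM in DOX. In 4 of the 5 DOX libraries it lay between 12.1 and 13.3 CPM, and in replicate 4 at 19.01. The difference was −0.076 (95% interval −0.62 to 0.47, adjusted p = 0.847).

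With a tumor, doxorubicin left all 10 genes without a call, where 4.72% of all tested genes were called (2.18% higher and 2.54% lower). At an unadjusted p under 0.05 in edgeR's test the count was also 0, and DESeq2 called 0. *Top2b* was measured at 110.2 to 120.4 CPM (median 117) in the 6 Tb libraries and at 123, 117, 118, 116 and 122 CPM in Tb-DOX. These values lie in or close to the Control range of 115 to 125. The difference was 0.041 (95% interval −0.077 to 0.16, adjusted p = 0.737). *Top1* ranged from 70.9 to 88.01 CPM (median 77.98) in Tb and was measured at 75.8, 68.5, 74.7, 65.1 and 71.4 CPM in Tb-DOX. It differed by −0.15 (95% interval −0.31 to 0.0043, adjusted p = 0.26), with the lowest p of the 10 genes (unadjusted p = 0.0561).

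Among the pumps, *Abcb1b* ranged from 4.77 to 9.46 CPM (median 6.18) in Tb and was measured at 7.38, 8.2, 6.56, 8.03 and 8.4 CPM in Tb-DOX. It differed by 0.23 (95% interval −0.33 to 0.80, adjusted p = 0.683). *Abcc1* ranged from 23.6 to 44.3 CPM (median 34.2) in Tb and was measured at 27.7, 26.8, 30.6, 28.8 and 25.8 CPM in Tb-DOX. The Tb-DOX values lay inside the Tb range, and the difference was −0.29 (95% interval −0.61 to 0.027, adjusted p = 0.294). *Abcg2* ranged from 29.97 to 54.7 CPM (median 41.1) in Tb and was measured at 46.8, 50.4, 39.5, 44.7 and 50.7 CPM in Tb-DOX, a difference of 0.15 (95% interval −0.15 to 0.45, adjusted p = 0.61). *Abcb1a* ranged from 21.3 to 28.6 CPM (median 24.2) in Tb and was measured at 32.5, 33.8, 27.4, 30.03 and 26.2 CPM in Tb-DOX, a difference of 0.28 (95% interval −0.046 to 0.60, adjusted p = 0.328) with an exact permutation p of 0.0844 on FPKM and of 0.0368 on FPKM rescaled by the TMM factors.

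*Cbr1* ranged from 9.34 to 14.3 CPM (median 12.6) in Tb and from 9.97 to 15.7 CPM (median 15.1) in Tb-DOX and differed by 0.18 (95% interval −0.12 to 0.47, adjusted p = 0.528). *Cbr3* differed by 0.10 (95% interval −0.51 to 0.71, adjusted p = 0.884) and *Top1mt* by −0.33 (95% interval −0.83 to 0.17, adjusted p = 0.465). *Rarg* differed by 0.41 (95% interval −0.11 to 0.93, adjusted p = 0.372). In Tb replicate 5 *Rarg* was at 3.01 CPM, against 11.6 to 13.8 CPM in the other Tb libraries, and without that library its difference was 0.22. The log2 ratio of *Top2b* to *Top1* differed by 0.19 (SE 0.0699; exact p = 0.0260, adjusted p = 0.104 over 20), with 0.898 to 1.21 in Tb and 1.12 to 1.27 in Tb-DOX. The ratio of *Abcb1b* to *Abcb1a* differed by −0.035 on the log2 scale (exact p = 0.881).

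The change with doxorubicin was lower with a tumor than without for *Top2b* and *Abcc1*, and for these genes the difference between the states was itself called. This interaction, (Tb-DOX minus Tb) minus (DOX minus Control), was −0.29 (SE 0.0818, adjusted p = 0.0346) for *Top2b* and −0.76 (SE 0.222, adjusted p = 0.0366) for *Abcc1*, 2 of 10 genes, against 8.94% of all tested genes. Both calls were near the threshold. *Top2b* had an adjusted p of 0.0187 to 0.0619 and *Abcc1* of 0.0224 to 0.0739 when each library was left out in turn, and the calls were lost in 8 and 10 of these 21 fits. With the replicate number as a block *Top2b* was not called (−0.28, adjusted p = 0.0808), and under library totals the values were −0.14 (adjusted p = 0.390) and −0.62 (adjusted p = 0.0762). *Abcb1b*, at −0.75 (95% interval −1.57 to 0.063, adjusted p = 0.206), *Abcg2*, at −0.48 (95% interval −0.92 to −0.045, adjusted p = 0.135), and *Cbr1*, at 0.46 (95% interval 0.026 to 0.89, adjusted p = 0.15), were not called. The other 5 genes had adjusted p-values of 0.385 to 0.817, and their intervals included 0.

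Between the drug-treated groups, *Top2b*, *Abcb1b* and *Abcc1* were lower in Tb-DOX than in DOX hearts (3 of 10, against 17.5% of all tested genes, 7.93% lower). This comparison shares its libraries with those above. *Top2b* differed by −0.33 (SE 0.059, adjusted p = 0.000702), *Abcb1b* by −0.93 (SE 0.283, adjusted p = 0.0267) and *Abcc1* by −0.48 (SE 0.16, adjusted p = 0.0436). In TMM-scaled CPM the *Top2b* and *Abcc1* groups did not overlap (14.5% of all tested genes). The highest Tb-DOX library for *Abcb1b*, at 8.40 CPM, lay above the lowest DOX library, at 6.26 CPM, and below the other DOX libraries. In FPKM the *Top2b* and *Abcc1* groups overlapped (exact permutation p = 0.0397 and 0.159), and of the 10 genes only *Top1* did not overlap (exact permutation p = 0.00794). Under library totals the median gene of this comparison lay at 0.18, none of these 3 was called (*Top2b* −0.14, adjusted p = 0.204; *Abcb1b* −0.75, adjusted p = 0.0617; *Abcc1* −0.30, adjusted p = 0.189), and *Top1* was higher in Tb-DOX by 0.29 (adjusted p = 0.0170). The ratio of *Top2b* to *Top1* was lower in every Tb-DOX library than in every DOX library, by 0.43 on the log2 scale (SE 0.0496; exact p = 0.00794, adjusted p = 0.0794 over 20). The *Abcc1* call was lost in 11 of the 21 fits that left out 1 library. The *Abcb1b* call was lost in 5 of them, among them those without DOX replicate 3 (−0.83, adjusted p = 0.0719) and without DOX replicate 4 (−0.69, adjusted p = 0.0956).

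None of the 10 genes was called for the tumor alone (0 of 10, against 6.28% of all tested genes; 1 at an unadjusted p under 0.05, 0 with DESeq2, and 1 with voom and library weights). That 1 was *Abcb1a*, at 21.3 to 28.6 CPM (median 24.2) in Tb against 26.3 to 39.5 in Control, a difference of −0.38 (95% interval −0.71 to −0.06, adjusted p = 0.161) with an exact permutation p of 0.0390 on FPKM and of 0.0130 on FPKM rescaled by the TMM factors. *Top2b* differed by −0.039 (95% interval −0.16 to 0.078, adjusted p = 0.72) and *Top1* by −0.0041 (95% interval −0.16 to 0.15, adjusted p = 0.981).

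Other genes of the same pathways were taken from lists written from general knowledge, and their counts are descriptions, to be read against all tested genes: 18.0% higher and 18.2% lower in DOX hearts, and 2.18% and 2.54% in Tb-DOX. Among 10 tested topoisomerases, repair factors and partners, 5 rose and 1 fell in DOX hearts (median 0.082, against 0.0024 for all genes), and 0 of 10 were called in Tb-DOX against Tb. Under library totals 3 rose and 3 fell, with a median of −0.055. *Topbp1*, a checkpoint protein that binds topoisomerase II, rose by 0.57 (adjusted p = 0.00518). *Sprtn*, a protease that degrades proteins crosslinked to DNA, was the most abundant of the list and rose by 0.48 (adjusted p = 0.0061). *Tdp2*, the enzyme that removes trapped topoisomerase II from DNA ends, rose by 0.33 (adjusted p = 0.0126). For *Topbp1* and *Sprtn* the interaction was called as well, at −0.67 (adjusted p = 0.0455) and −0.65 (adjusted p = 0.0301), against 8.94% of all tested genes. Under library totals these interactions were not called (adjusted p = 0.116 and 0.0834), nor was *Tdp2* in DOX hearts (0.19, adjusted p = 0.178). *Top2a*, the form of dividing cells, was below the filter.

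Among 14 other tested ABC transporters, 2 rose and 2 fell in DOX hearts, against 36.2% of all tested genes called in either direction, and 2 rose in Tb-DOX. Under library totals 2 rose and 2 fell in DOX hearts and 1 rose in Tb-DOX. *Abcb4*, the phospholipid flippase that lies 27.4 kb beyond *Abcb1b*, rose in both states, from a mean FPKM of 2.77 ± 0.329 in Control to 6.2 ± 0.658 in DOX (SD, n = 5 each), by 1.30 (adjusted p = 3.7e-06), and from 2.69 ± 0.456 in Tb (n = 6) to 3.9 ± 0.633 in Tb-DOX (n = 5), by 0.52 (adjusted p = 0.0349). The smaller change with a tumor was called, at −0.78 (adjusted p = 0.0247), and all 3 calls were kept under library totals. *Abcc5*, a nucleotide exporter, fell in DOX hearts by 1.11 on the log2 scale (adjusted p = 0.00131), and *Abcb10*, a transporter of the mitochondrial inner membrane, fell by 0.51 (adjusted p = 0.0064). *Abcc9*, the sulfonylurea receptor of the cardiac ATP-sensitive potassium channel, was the most abundant and differed by −0.11 (adjusted p = 0.525). The windows of 50 bases that *Abcb1b* shares with *Abcb4* were 0.822% of its total.

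Of 8 tested uptake carriers, 6 fell and 0 rose in DOX hearts, where 18.2% of all tested genes fell (median −0.71, against 0.0024 for all genes), and 2 fell in Tb-DOX. Under library totals 6 fell in DOX hearts (median −0.84), where 25.2% of all tested genes fell, and 0 were called in Tb-DOX. *Slc22a5*, the carnitine carrier, fell in both states, at −0.54 (adjusted p = 0.0145) and −0.57 (adjusted p = 0.0432). *Slc29a1*, the nucleoside carrier ENT1 and the most abundant of the list, differed by −0.88 (adjusted p = 0.000386) in DOX hearts and by −0.11 (adjusted p = 0.744) with a tumor, and the interaction was called at 0.77 (adjusted p = 0.038).

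Of 10 other tested carbonyl-reducing enzymes, 1 rose and 4 fell in DOX hearts (median −0.33), and 1 rose in Tb-DOX; under library totals 1 rose and 6 fell in DOX hearts. The riser in both states was *Dcxr*, which reduces xylulose and dicarbonyls, at 1.18 (adjusted p = 0.000265) and 1.23 (adjusted p = 0.00188). *Akr1c14*, a hydroxysteroid dehydrogenase, was at 6.15 ± 1.02 FPKM in Control and at 0.836 ± 0.513 in DOX, −2.73 (adjusted p = 2.81e-06) on the log2 scale. *Cbr2* fell to 1.21 ± 0.564 FPKM from 5.59 ± 1.9, −2.05 (adjusted p = 5.56e-05). With a tumor these differed by −0.47 (adjusted p = 0.328) and −0.54 (adjusted p = 0.28), and both interactions were called, at 2.26 (adjusted p = 0.00769) and 1.51 (adjusted p = 0.0295). *Akr1c14* was also called lower in Tb than in Control, under TMM and under library totals (−0.88, adjusted p = 0.0411 under library totals). *Cbr2* was not called in that comparison. *Akr1a1*, the most abundant, differed by 0.092 (adjusted p = 0.526).

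Of 12 tested quinone reductases and related enzymes, 5 rose and 1 fell in DOX hearts (median 0.22), and 0 were called in Tb-DOX. Which of them act on the quinone ring of doxorubicin was not tested. Under library totals 3 rose and 2 fell in DOX hearts. *Nqo1*, which reduces quinones by 2 electrons, was at 27.1 ± 2.45 FPKM in Control and 46.8 ± 8.91 in DOX, 0.91 (adjusted p = 1.72e-05), and its interaction was called at −0.84 (adjusted p = 0.0106). *Nos3*, the endothelial nitric oxide synthase, rose by 0.67 (adjusted p = 0.00597), *Cyb5r1* fell by 0.53 (adjusted p = 0.00152), and *Ndufv1* of respiratory complex I, the most abundant, rose by 0.33 (adjusted p = 0.0175), a call that was lost under library totals (0.18, adjusted p = 0.242). Among 15 tested genes of the Nrf2 pathway, the oxidative stress response that includes *Nqo1*, 5 rose and 1 fell in DOX hearts (median 0.064, and −0.045 under library totals, where 4 rose and 1 fell), and 1 rose and 1 fell in Tb-DOX. *Gstm1*, a glutathione transferase, rose in both states, at 0.74 (adjusted p = 2.49e-05) and 0.49 (adjusted p = 0.00745), and *Me1*, malic enzyme, fell in both, at −0.58 (adjusted p = 0.00263) and −0.59 (adjusted p = 0.0155).

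Of 12 tested genes of retinoid signalling beside *Rarg*, 2 rose and 3 fell in DOX hearts (median −0.091), and 1 fell in Tb-DOX. Under library totals 1 rose and 4 fell in DOX hearts (median −0.24). *Aldh1a2*, which makes retinoic acid, fell in both states, at −2.26 (adjusted p = 0.000117) and −1.48 (adjusted p = 0.0118). *Aldh1a1*, another retinaldehyde dehydrogenase, fell at −1.10 (adjusted p = 0.00584), and *Cyp26b1*, which degrades retinoic acid, rose at 2.52 (adjusted p = 0.00581) with a wide spread in DOX, 11.4 ± 10.4 FPKM. *Tgm2*, a retinoic acid target and the most abundant, differed by 0.31 (adjusted p = 0.27).

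**Figure D4:**
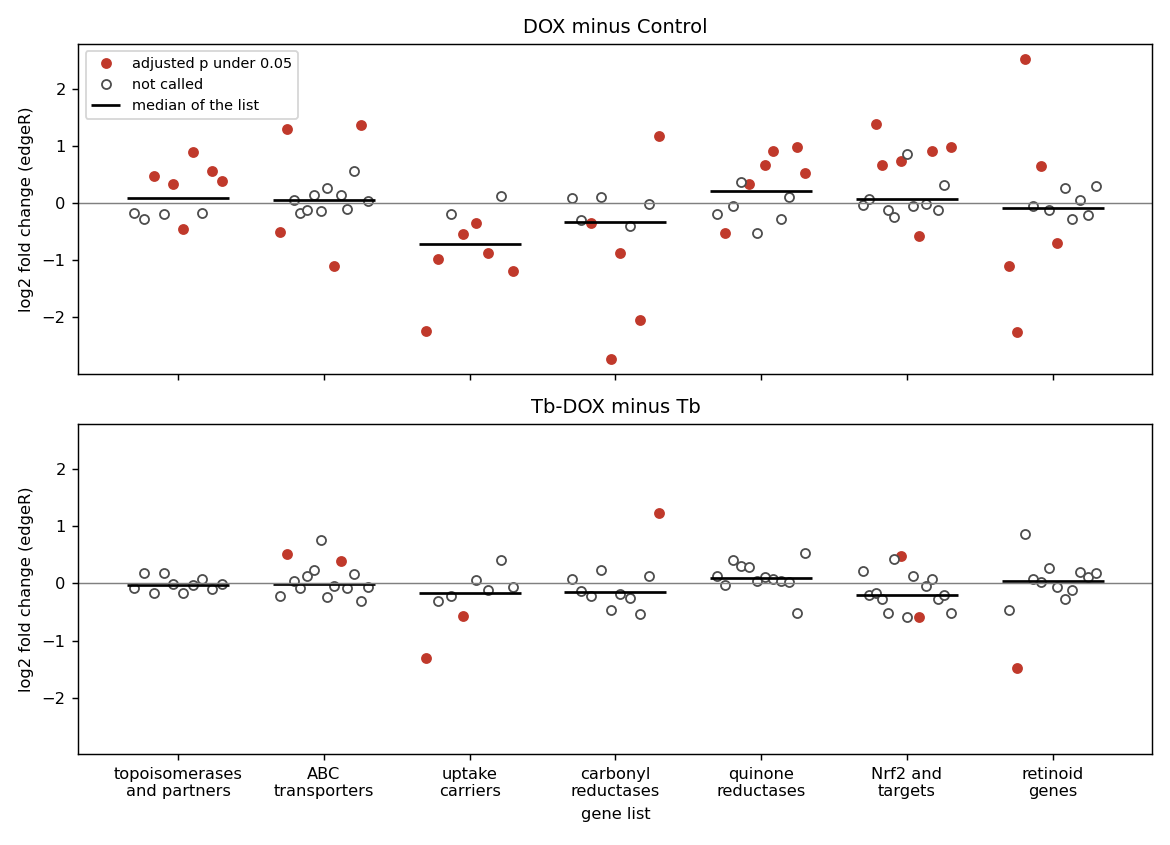
Log2 fold change (vertical axes) of every tested gene of the 7 pathway lists (horizontal axis) for DOX minus Control (top) and Tb-DOX minus Tb (bottom). Filled points have an adjusted p under 0.05 and black bars are list medians; the uptake carriers have a median of −0.71 in the top panel and −0.16 in the bottom panel.

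Markers of several cell types differed between the groups. Counts of called markers are to be read against all tested genes, of which 36.2% were called in DOX against Control and 4.72% in Tb-DOX against Tb. Summed cardiomyocyte markers (8 genes) were 55581 to 68876 CPM in Control, 72293 to 85710 in DOX, 47579 to 56211 in Tb and 60012 to 72450 in Tb-DOX. Of these 8, 4 rose and 1 fell in DOX against Control, and 3 rose and 0 fell in Tb-DOX against Tb. Fibroblast markers (8 genes) were 2373 to 2544 CPM in Control and 1710 to 1926 in DOX, where 1 rose and 5 fell, and 1562 to 2136 in Tb and 1353 to 1913 in Tb-DOX, where 0 rose and 3 fell. Endothelial markers (10 genes) were 1566 to 1708 CPM in Control and 1164 to 1657 in DOX (1 rose, 2 fell), and 1626 to 2248 in Tb and 1433 to 1697 in Tb-DOX (0 rose, 1 fell). Macrophage markers (8 genes) were 124 to 158 CPM in Control and 63.7 to 128 in DOX (0 rose, 5 fell), and 146 to 186 in Tb and 95.4 to 188 in Tb-DOX (0 rose, 2 fell). Markers of pericytes and smooth muscle (8 genes) were 1009 to 1103 CPM in Control and 1118 to 1278 in DOX (1 rose, 0 fell), and 787 to 1215 in Tb and 923 to 1055 in Tb-DOX (2 rose, 0 fell). Neutrophil markers (10 genes) were 2.79 to 5.03 CPM in Control and 8.47 to 62.0 in DOX (6 rose, 0 fell), and 604 to 5587 in Tb and 906 to 3773 in Tb-DOX (0 rose, 0 fell). Markers of erythroid cells (8 genes, 5 tested) were 203 to 795 CPM in Control and 4.71 to 132 in DOX (5 fell), and 370 to 832 in Tb and 2.46 to 28.8 in Tb-DOX (5 fell). B cell markers (6 genes, 1 tested) were 3.53 to 8.27 CPM in Control and 2.17 to 3.33 in DOX (1 fell), and 8.10 to 17.6 in Tb and 2.07 to 6.61 in Tb-DOX (1 fell). Adipocyte markers (6 genes) stayed under 2.1 CPM. In Tb-DOX against DOX, where 17.5% of all tested genes were called, 10 of 10 neutrophil and 3 of 8 macrophage markers rose, 2 of 8 cardiomyocyte, 1 of 8 pericyte and smooth muscle and 2 of 5 erythroid markers fell, 1 fibroblast marker rose and 2 fell, and 0 of 10 endothelial markers were called. In bulk RNA, fewer cells of a type and less RNA per cell cannot be told apart, and the part of these shifts in the changes of the 10 genes was not tested.

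DOX replicate 4 and Tb replicate 5, in which *Cd3e* was highest, were the highest or lowest library of their group for some of the 10 genes. Every gene has a highest and a lowest library in each group. The share of all tested genes for which these libraries were so placed was not computed, so the positions do not mark them as unusual. Among DOX libraries replicate 4 was the highest for *Abcb1b* and *Rarg* and the lowest for *Abcc1*. Among Tb libraries replicate 5 was the highest for *Abcb1b*, *Abcc1* and *Abcg2* and the lowest for *Rarg*, *Top1mt*, *Abcb1a* and *Cbr1*. Without DOX replicate 4, *Abcb1b* differed from Control by 0.75 (adjusted p = 0.0427). Without both libraries, the same 5 genes were called in DOX against Control and 0 of 10 in Tb-DOX against Tb. The *Top2b* interaction (−0.27, adjusted p = 0.0597) and *Abcb1b* in Tb-DOX against DOX (−0.69, adjusted p = 0.0597) were then not called.

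Over the 21 libraries, genes with the pattern most like that of a member were found by the root-mean-square difference of standardised log2 CPM, whose median over all genes was 1.37 to 1.39. For *Top2b* they were *Serinc1* (0.314) and *Kalrn* (0.397), for *Abcg2* *Syn2* (0.373) and *Hecw2* (0.418), and for *Abcb1b* *Zcchc14* (0.423) and *Spg11* (0.440). For *Rarg* they were *Stx2* (0.411) and *Fgd5* (0.493), for *Abcc1* *Srpr* (0.469) and *Yrdc* (0.609), for *Cbr1* *Dele1* (0.533) and *Adck1* (0.576), and for *Top1* *Mgl2* (0.536) and *Itga1* (0.537). The values were higher for *Abcb1a* with *Fmo2* (0.572) and *Ap4m1* (0.592), for *Top1mt* with *Fbp2* (0.713) and *Ifit1bl2* (0.717) and for *Cbr3* with *Bcl6b* (0.752) and *Rhox5* (0.789). The points share libraries and treatment groups, so the likeness is a description.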

How the data were processed

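RNA from 21 mouse hearts was sequenced after poly(A) selection according to the study's methods. The labels allow oligo(dT) beads or rRNA depletion. The authors trimmed reads with Cutadapt 1.9.1, and their processing notes name HISAT2, HTSeq 0.6.1, DESeq2 1.34.0 and GRCm39. They deposited 1 table with a whole-number count per gene and library and an FPKM value. The deposited FPKM equalled the count scaled by gene length and library total in 100% of values (within 0.005). The table also holds annotation columns, which were not used. Depth was 13521200 to 18601445 counts per library, and intervals cover the spread between libraries only. Replicates differed by more than counting error (chi-square per degree of freedom of at least 5.95).

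The main test was edgeR 4.0.16 under R 4.3.3 (TMM, quasi-likelihood F test, 1 coefficient per group, all 21 libraries in 1 fit) on the counts of the 13990 genes whose FPKM averaged 0.5 or more. SEs were the fold change over the square root of F, and 95% intervals used the t quantile at the fit's degrees of freedom. Single genes and within-library ratios were also tested with two-sided exact permutation tests on log2(FPKM + 0.1), whose smallest p is 0.00794 for 5 against 5 libraries (252 arrangements) and 0.00216 for 6 against 5 (462). Ratios were adjusted over 20 tests. The script was tested on simulated data. Groups came from the sample titles.

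The members were chosen by name, and members, lists and alternatives with earlier results of these data known. Named genes were all 10 members and, of each pathway list, genes called in both states, those with the smallest p in DOX against Control up to 3, and the most abundant; 1 gene so named is not reported here. Alternatives were other scalings, filters, thresholds, limma 3.58.1 on log2 FPKM, voom weights, DESeq2 1.42.0, a replicate block and each library left out. Promoters came from RefSeq on GRCm38.p6, whose coordinates were not compared with the table's, and shared windows from GENCODE M21. Same-numbered libraries were not paired.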

Additional observations from a re-analysis of the deposited data

Results flagged for a closer look

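Values far from the rest of their group were looked for in 60 groups of values (10 genes and 5 ratios in 4 groups), where chance alone gives about 1 in 20, and 6 were found. *Rarg* was at 19.01 CPM in DOX replicate 4, the highest of 5, against 12.1 to 13.3 in the others, and at 3.01 CPM in Tb replicate 5, the lowest of 6, against 11.6 to 13.8. These are the 2 libraries in which *Cd3e* was highest in their groups. The ratio of *Abcb1b* to *Abcb1a* was also highest in Tb replicate 5, at 0.305 against 0.136 to 0.185. The ratio of *Cbr3* to *Cbr1* was 0.372 in Control replicate 4 against 0.242 to 0.253 in the other Control libraries, and the counts of *Cbr3* were low. The ratio of *Top2b* to *Top1* was 1.45 in DOX replicate 1, the lowest of its group, against 1.62 to 1.69, and still above all Control libraries. The ratio of *Abcg2* to *Abcc1* was 4.05 in Tb replicate 6, against 1.5 to 2.35 in the other Tb libraries.

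The change with doxorubicin differed between the states for *Top2b*, by −0.29 on the log2 scale (adjusted p = 0.0346), and for *Abcc1*, by −0.76 (adjusted p = 0.0366), by edgeR's interaction test. Under library totals neither was called (adjusted p = 0.390 and 0.0762), and both calls were kept in 7 of the 21 fits that left out 1 library.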

How the results depend on the processing

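In DOX against Control, the count of 5 members called became 3 with a mean FPKM of at least 5 (which leaves 5 members in the test) and 3 at an adjusted p under 0.01, 0 with the minimum fold, and 4 to 5 when 1 library was left out. It was 4 under library totals and with limma at either pseudocount, where *Top2b* and *Abcc1* lost their calls and *Cbr1* gained one, and 4 with no filter, where *Top1* lost its call (−0.25, adjusted p = 0.0926). In Tb-DOX against Tb it was 0 under every alternative run. The interaction count of 2 became 0 under library totals, with a mean FPKM of at least 5, with limma at either pseudocount, at an adjusted p under 0.01 and with the minimum fold. It became 1, with *Top2b* lost, under upper quartile scaling, with no filter, with the replicate block and without DOX replicate 4 and Tb replicate 5 together (an alternative chosen after seeing the data), and was 0 to 2 when 1 library was left out, 0 without Control replicate 2 or Tb-DOX replicate 1, 2 or 4. In Tb against Control, voom with library weights called 1 (*Abcb1a*, −0.41, adjusted p = 0.0381). In Tb-DOX against DOX the count of 3 became 1 under library totals and 1 with limma at either pseudocount, where none of the 3 was called and *Top1* was higher, 1 with a mean FPKM of at least 5, 1 at an adjusted p under 0.01 and 0 with the minimum fold, and was 1 to 3 when 1 library was left out. *Abcc1* lost its call under upper quartile scaling (adjusted p = 0.0503), with no filter (adjusted p = 0.0512) and with the replicate block (adjusted p = 0.0532), and *Abcg2* gained one with voom weights (−0.40, adjusted p = 0.0305). Causes were not tested beyond what the alternatives themselves change. No called member changed sign under any alternative run.

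With the replicate block, 5, 0, 1, 0 and 2 members were called in the 5 comparisons as listed here. Residuals of same-numbered libraries correlated at −0.234 to 0.210, so the number was not taken as a pairing. Without Tb replicate 6 the adjusted p of 4 ratios fell to 0.0397: *Top2b* to *Top1* in DOX against Control (0.58), Tb-DOX against Tb (0.23) and Tb-DOX against DOX (−0.43), and *Abcg2* to *Abcc1* in Tb-DOX against Tb (0.59). Over the fits with 1 library left out, the log2 ratio of *Top2b* to *Top1* ranged from 0.57 to 0.62, from 0.14 to 0.23 and from −0.46 to −0.40 in those comparisons, and that of *Abcg2* to *Abcc1* from 0.31 to 0.59. DOX against Control and Tb-DOX against DOX hold no Tb library. Without Tb replicate 6 their differences and exact permutation p (0.00794) were therefore unchanged, and only the adjustment over 20 tests moved. On the deposited FPKM the exact p in DOX against Control was 0.0238 for *Top2b*, 0.111 for *Abcb1b* and *Abcc1* and 0.0317 for *Abcg2*. With FPKM rescaled by the TMM factors (chosen after seeing the data), the exact p of *Top2b*, *Abcc1* and *Abcg2* in DOX against Control was 0.00794 and that of *Abcb1b* 0.0556. Counts of *Cbr3* and *Top1mt* were at most 62 and 112 per library.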
